A study of Mus musculus with 15 samples.

Results

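The 9 genes described here carry the names of bone morphogenetic proteins (BMP) or growth and differentiation factors (GDF): Bmp1, Bmp2, Bmp3, Bmp4, Bmp5, Bmp6, Bmp7, Gdf6 and Gdf10. They were taken by symbol from the transcript clusters whose array annotation gives exactly 1 gene, and where a gene had several clusters the one with the highest mean over the 15 arrays stood for it. All 9 were found among 18718 genes. Their levels are described across 5 populations of mesenchymal cells, the supporting connective tissue cells of thymus and lymph node.

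All cells came from C57BL/6 mice aged 2 weeks and carried PDGFRβ, a receptor of pericytes and fibroblasts. Suspensions were made with liberase TM and DNase I. From thymus, cells with podoplanin (PDPN) but without BP3, here thymus PDPN+BP3-, and cells without podoplanin, here thymus PDPN-, were collected. Lymph node (inguinal, brachial and axillary nodes in 1 pool) gave PDPN+BP3-, PDPN+BP3+ and PDPN- cells. BP3 is the product of Bst1. The PDPN- cells of both tissues were also sorted for Ly51, the product of Enpep. Each population was measured on 3 Affymetrix Mouse Gene arrays from 3 experiments with separate pools of animals, 3 mice to a pool for thymus and 10 to 11 for lymph node. Pool size and tissue cannot be told apart, and the RNA was amplified before labelling. In sorted bulk samples, fewer cells of a type and less RNA per cell cannot be told apart either.

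BMPs and GDFs are secreted dimers of the TGF-β family. They bind type I and type II serine/threonine kinase receptors, which phosphorylate SMAD1, SMAD5 and SMAD9, and these with SMAD4 switch on genes such as the Id family. Secreted antagonists (noggin, gremlin, the chordins) hold the ligands away from the receptors. In the thymus, BMP4 made by mesenchyme and endothelium is known to act on epithelial cells, and in lymph nodes gremlin 1 marks fibroblastic reticular cells. Bmp1 is the exception in the list, since it encodes a tolloid metalloprotease that trims procollagens and cuts chordin, and not a ligand.

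The genes of the sort antigens followed the labels. Pdgfrb averaged 8.94 to 10.61 in every population. Pdpn averaged 8.16 to 9.11 in the 3 PDPN+ populations and 3.01 to 3.41 in the PDPN- ones, and Bst1 averaged 8.74 in lymph node PDPN+BP3+ cells against 2.18 to 3.30 elsewhere. These and all levels below are RMA signals on a log2 scale, on which the median of the whole table was 3.80. Levels are set side by side only within a gene, since probes differ in brightness. Thymus PDPN+BP3- replicate 1 stood apart: its median was 3.58, where the medians of the remaining arrays ran from 3.77 to 3.885. Markers of other cells were not even: the mean of 8 epithelial genes was 3.49 to 4.30 over the thymus PDPN+BP3- arrays, 4.28 to 4.73 over the thymus PDPN- arrays and 2.73 to 2.93 in lymph node, with 2, 4 and 1 of the 8 above the table median. The mean of 6 thymocyte and T lineage genes was 3.38 to 4.91, 4.86 to 5.57 and 2.68 to 2.93 over the same arrays, with 5, 5 and 0 of the 6 above that median. The mean of 8 endothelial genes was 4.08 to 4.51 in lymph node PDPN+BP3- cells (5 of 8 above the median), against 3.19 to 3.75 elsewhere (1 to 3 of 8). Emcn and Lyve1 were exceptions. Emcn averaged 7.72 in thymus PDPN- cells, against 4.99 in lymph node PDPN+BP3- cells. Lyve1 averaged 4.57 in lymph node PDPN- cells, against 4.33 in lymph node PDPN+BP3- cells. The part of all these markers in the results was not tested.

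The 250 bases before the start are shown for Bmp4, Gdf10 and Bmp5, the 3 genes whose population means spanned the widest range, as RefSeq gives them on build GRCm38.p6. Capitals mark the GC box GGGCGG on either strand. The windows are chr14:46390670-46390919 (minus strand) for Bmp4, chr14:33923337-33923586 (plus strand) for Gdf10 and chr9:75775115-75775364 (plus strand) for Bmp5.
Bmp4: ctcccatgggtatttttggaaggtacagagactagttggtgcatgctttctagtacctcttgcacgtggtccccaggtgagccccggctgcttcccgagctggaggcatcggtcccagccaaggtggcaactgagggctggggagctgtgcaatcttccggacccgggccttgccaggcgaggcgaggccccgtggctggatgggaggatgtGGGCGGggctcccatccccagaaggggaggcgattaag
Gdf10: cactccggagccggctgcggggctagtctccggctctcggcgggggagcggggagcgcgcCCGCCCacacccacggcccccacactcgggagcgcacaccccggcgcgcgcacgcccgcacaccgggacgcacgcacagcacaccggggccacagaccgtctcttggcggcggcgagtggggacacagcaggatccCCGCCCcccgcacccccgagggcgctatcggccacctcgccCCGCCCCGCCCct
Bmp5: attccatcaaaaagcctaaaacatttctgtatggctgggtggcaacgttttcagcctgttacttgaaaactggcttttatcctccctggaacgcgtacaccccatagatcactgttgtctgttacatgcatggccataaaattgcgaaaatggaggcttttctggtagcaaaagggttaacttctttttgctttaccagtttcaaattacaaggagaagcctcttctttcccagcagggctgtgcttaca
The Gdf10 window had 78.8% G and C, 35 CpG and 4 GC boxes, some overlapping. The Bmp4 window had 63.2% G and C, 11 CpG, 1 GC box and 3 E-boxes (CANNTG). The Bmp5 window had 42.8% G and C, 4 CpG and none of the motifs searched. Of the 9 genes, 4 had a window, and the window of Bmp6 (chr13:38345466-38345715, plus strand) had 68.8% G and C, 22 CpG, 1 GC box and 2 E-boxes. Over 32851 promoter windows of the same length, the median was 52.4% G and C and 6 CpG, 32.74% held a GC box and 66.22% an E-box. The TATA box TATAAA, the GC-rich SMAD element GGCGCC, the RBPJ site GTGGGAA and the FOX site TGTTTAC, each searched on both strands and held by 12.37%, 9.59%, 5.42% and 3.17% of windows, matched in none of the 4. A match describes letters in the window only.

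The 9 genes fell into different patterns. Gdf10 was high in the PDPN+BP3- cells of both tissues, Bmp4 and Bmp7 were highest in the thymus PDPN+BP3- cells, Bmp3 was highest in both PDPN+ populations of lymph node, and Bmp5 and Bmp2 were highest in PDPN- cells. The span between the highest and the lowest population mean was 5.48 for Bmp4, 5.09 for Gdf10, 3.96 for Bmp5, 2.95 for Bmp3, 2.59 for Bmp7, 1.92 for Bmp2, 1.29 for Gdf6, 1.13 for Bmp1 and 0.997 for Bmp6. Differences are given as log2 difference ± SE from limma over all 15 arrays (n = 3 per population), with p-values adjusted over all 18718 genes by Benjamini-Hochberg and a threshold of 0.05.

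**Figure D1:**
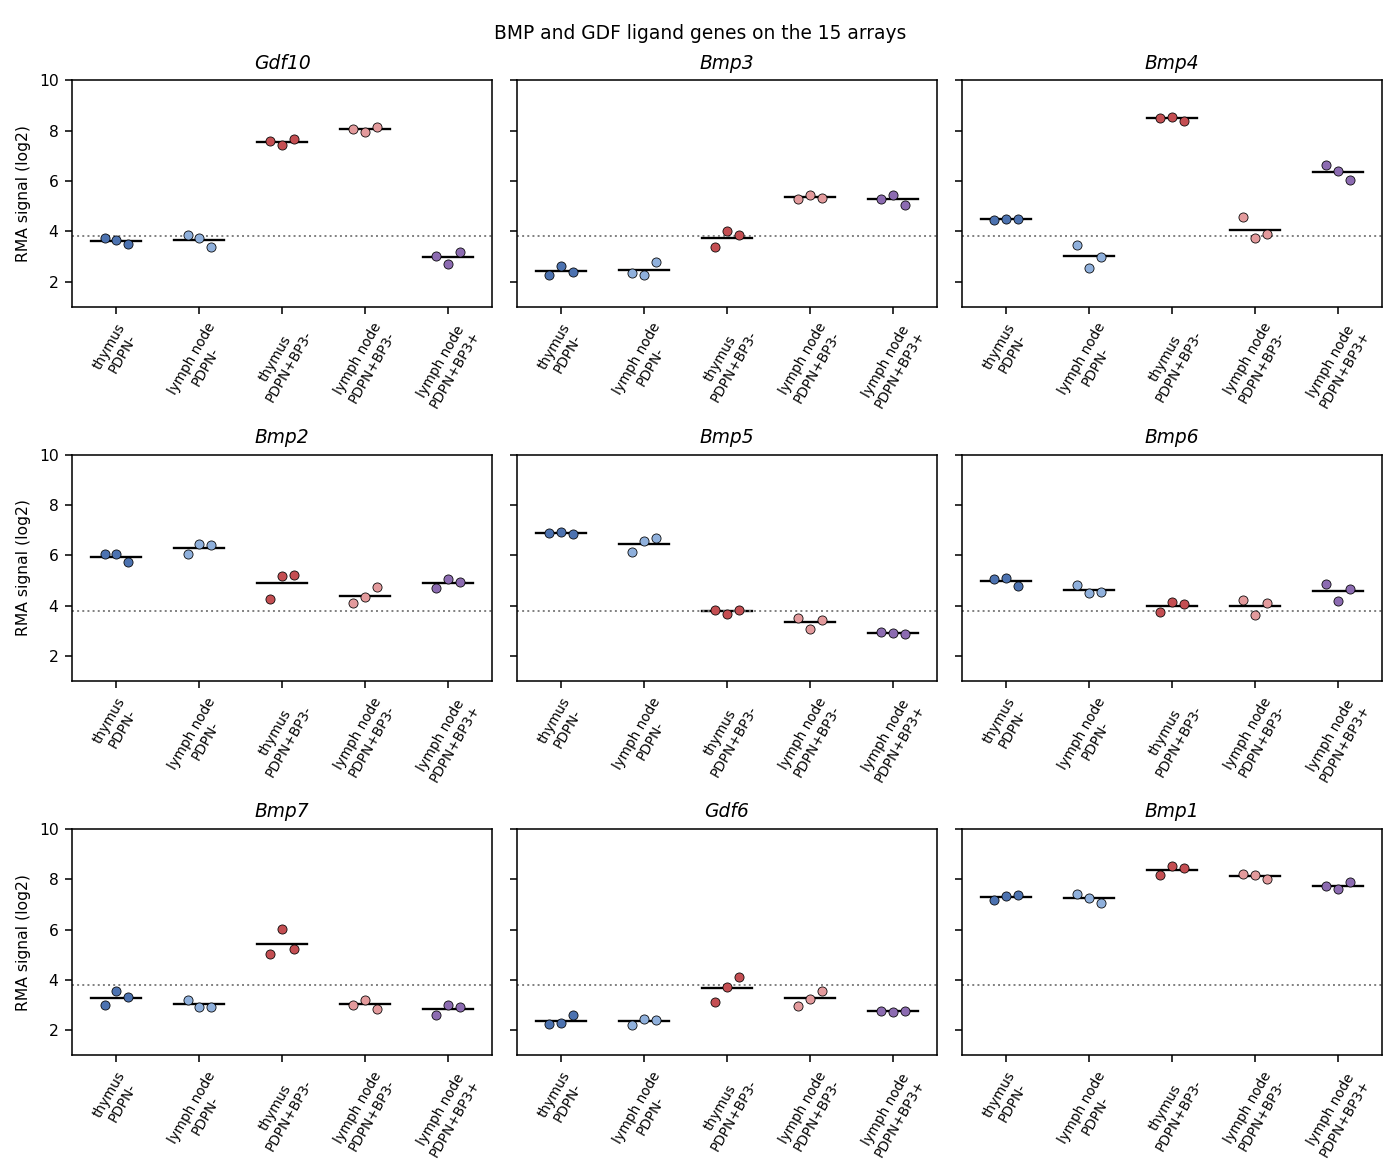
RMA signal (log2) of the 9 genes in the 5 populations; each point is 1 array, the bar is the mean of 3 arrays and the dotted line is the median of the table, 3.80. Gdf10 lies at 7.43 to 8.15 in PDPN+BP3- cells of both tissues and at 2.70 to 3.84 in the other populations, while Bmp5 lies at 6.13 to 6.94 in PDPN- cells and at 2.89 to 3.84 in PDPN+ cells.

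Bmp2 and Bmp4 form the ligand pair that is closest in sequence to fly Dpp. Bmp4 read 8.52, 8.56 and 8.37 in thymus PDPN+BP3- cells and 4.44, 4.49 and 4.49 in thymus PDPN- cells. In lymph node it read 6.63, 6.39 and 6.05 in PDPN+BP3+ cells, 4.56, 3.75 and 3.91 in PDPN+BP3- cells and 3.45, 2.56 and 3.00 in PDPN- cells. The thymus PDPN+BP3- arrays were thus highest, the lymph node PDPN+BP3+ arrays second, and of the neighbours in the order of means only thymus PDPN- and lymph node PDPN+BP3- overlapped. Bmp4 was higher in PDPN+BP3- cells than PDPN- cells by 4.01 ± 0.22 in thymus (adjusted p 4.03e-10) and by 1.07 ± 0.22 in lymph node (adjusted p 0.00152). Between the tissues it was lower in lymph node by the larger margin in PDPN+BP3- cells, -4.41 ± 0.22 (adjusted p 7.29e-10), against -1.47 ± 0.22 in PDPN- cells (adjusted p 2.50e-04). Within lymph node, PDPN+BP3+ cells exceeded PDPN+BP3- cells by 2.28 ± 0.22 (adjusted p 9.21e-07) and PDPN- cells by 3.35 ± 0.22 (adjusted p 4.86e-09). Bmp4 was therefore the 1 gene of the 9 past the threshold in all 6 comparisons.

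Bmp2 ran the other way. It read 6.04, 6.07 and 5.74 in thymus PDPN- cells and 6.07, 6.43 and 6.42 in lymph node PDPN- cells. In PDPN+ cells it read 4.25, 5.19 and 5.23 (thymus PDPN+BP3-), 4.09, 4.33 and 4.73 (lymph node PDPN+BP3-) and 4.70, 5.06 and 4.93 (lymph node PDPN+BP3+). Every PDPN- array lay above every PDPN+ array, while the 3 PDPN+ populations overlapped. Bmp2 was lower in PDPN+BP3- than in PDPN- cells, at -1.06 ± 0.23 in thymus (adjusted p 0.00192) and -1.92 ± 0.23 in lymph node (adjusted p 6.57e-06), and lower in lymph node PDPN+BP3+ than in PDPN- cells, at -1.41 ± 0.23 (adjusted p 1.56e-04). Its difference between lymph node and thymus PDPN+BP3- cells was -0.51 (adjusted p 0.150). Without thymus PDPN+BP3- replicate 1, the lowest of its population, it was -0.83 (adjusted p 0.00498). With all arrays it also passed the threshold after cyclic loess (-0.75, adjusted p 0.00795) and quantile normalization (-0.70, adjusted p 0.0153).

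Bmp5, Bmp6 and Bmp7 belong to a further ligand group, whose members are best known for kidney, bone and iron metabolism. Bmp5 read 6.89, 6.94 and 6.83 in thymus PDPN- cells and 6.13, 6.57 and 6.67 in lymph node PDPN- cells. In PDPN+BP3- cells it read 3.84, 3.66 and 3.82 in thymus and 3.50, 3.09 and 3.41 in lymph node, and in lymph node PDPN+BP3+ cells 2.96, 2.93 and 2.89. No array of a population overlapped with those of the next one in the order thymus PDPN-, lymph node PDPN-, thymus PDPN+BP3-, lymph node PDPN+BP3-, lymph node PDPN+BP3+. The step between PDPN- and PDPN+BP3- cells was of nearly one size in both tissues, -3.11 ± 0.14 in thymus (adjusted p 3.41e-11) and -3.12 ± 0.14 in lymph node (adjusted p 4.66e-11), and in PDPN+BP3+ cells it was -3.53 ± 0.14 (adjusted p 8.53e-12). The smaller steps were less secure. The difference of lymph node from thymus PDPN+BP3- cells, -0.44 ± 0.14 (adjusted p 0.0372), missed the threshold in 7 of 13 alternatives, among them without thymus replicate 1 or 3 (-0.41 with adjusted p 0.108, -0.42 with 0.0833) and without lymph node replicate 2 or 3 (-0.32 with 0.191, -0.48 with 0.0569). That of the PDPN- cells, -0.43 (adjusted p 0.0638), passed without lymph node PDPN- replicate 3 (-0.54, adjusted p 0.0355). That of lymph node PDPN+BP3+ from PDPN+BP3- cells, -0.41 (adjusted p 0.0571), passed without PDPN+BP3- replicate 2 (-0.53, adjusted p 0.0207). The mean of 10 pericyte and smooth muscle markers was 9.32 to 10.03 over the PDPN- arrays and 6.32 to 7.70 over the PDPN+ arrays. Against PDPN- cells, 10 were lower in thymus PDPN+BP3- and 9 in lymph node PDPN+BP3- cells (all genes 18.2% and 9.79%). In lymph node PDPN+BP3+ cells 9 were lower and 1, Des, was higher (all genes 11.2% and 16.1%). Des averaged 9.91 there, against 9.12 in lymph node PDPN- cells. The part of these markers in the Bmp2 and Bmp5 differences was not tested.

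Bmp7, which in development guides kidney and eye, stood apart in 1 population. Its arrays read 5.04, 6.03 and 5.23 in thymus PDPN+BP3- cells and 3.00, 3.57 and 3.33 in thymus PDPN- cells. In lymph node the 9 arrays lay between 2.62 and 3.21, with means of 3.03 in PDPN-, 3.02 in PDPN+BP3- and 2.85 in PDPN+BP3+ cells. All 3 thymus PDPN+BP3- arrays were above the other 12, and the 4 other population means lay under 3.80, so that a signal there need not stand above background. Bmp7 was higher in thymus PDPN+BP3- than in thymus PDPN- cells by 2.13 ± 0.21 (adjusted p 7.75e-07) and lower in lymph node than in thymus PDPN+BP3- cells, at -2.41 ± 0.21 (adjusted p 5.83e-07). The array holds a further cluster for Bmp7 whose signal was flat at 1.73 to 2.24. With the mean of both clusters the differences were 1.13 and -1.29, past the threshold in both cases.

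Bmp6, a regulator of hepcidin made mainly by endothelium of the liver, varied least. Its arrays ran from 4.78 to 5.09 in thymus PDPN-, 4.51 to 4.81 in lymph node PDPN-, 4.20 to 4.87 in lymph node PDPN+BP3+, 3.76 to 4.15 in thymus PDPN+BP3- and 3.64 to 4.21 in lymph node PDPN+BP3- cells. The populations overlapped with their neighbours except between lymph node PDPN+BP3+ and thymus PDPN+BP3-. Bmp6 was lower in PDPN+BP3- than in PDPN- cells of thymus, at -0.99 ± 0.18 (adjusted p 5.62e-04). In lymph node that difference was -0.64 ± 0.18 (adjusted p 0.0168), and it missed the threshold without PDPN- replicate 1 (-0.55, adjusted p 0.0667) or PDPN+BP3- replicate 2 (-0.47, adjusted p 0.104). Lymph node PDPN+BP3+ cells were above PDPN+BP3- cells by 0.60 ± 0.18 (adjusted p 0.0326), although their arrays overlapped. That call was lost without PDPN+BP3+ replicate 1 (0.46, adjusted p 0.167) or 3 (0.55, adjusted p 0.107) or PDPN+BP3- replicate 2 (0.43, adjusted p 0.173).

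Gdf10, also named Bmp3b, and Bmp3 form a divergent subgroup. Bmp3 is known to oppose other BMPs, and Gdf10 has been tied to SMAD2 and SMAD3. Gdf10 read 7.60, 7.43 and 7.67 in thymus PDPN+BP3- cells and 8.06, 7.96 and 8.15 in lymph node PDPN+BP3- cells. In the other populations it read 3.75, 3.66 and 3.48 (thymus PDPN-), 3.84, 3.74 and 3.36 (lymph node PDPN-) and 3.04, 2.70 and 3.17 (lymph node PDPN+BP3+). All 6 PDPN+BP3- arrays lay at 7.43 or more and the other 9 at 3.84 or less, and the BP3+ cells of lymph node, though PDPN+, were lowest of all. The mean of 7 adventitial fibroblast markers split likewise, at 8.91 to 9.27 over thymus and 7.86 to 8.34 over lymph node PDPN+BP3- arrays. In the other populations it was 3.24 to 4.95. Pdgfra and Clec3b were exceptions. In lymph node they averaged 8.67 and 7.28 in PDPN+BP3+ cells, 9.44 and 8.28 in PDPN+BP3- cells and 4.25 and 4.04 in PDPN- cells. In PDPN+BP3+ cells 2 of the 7 were higher and 2 lower than in lymph node PDPN- cells (all genes 16.1% and 11.2%). The part of these markers in the Gdf10 differences was not tested. Gdf10 was higher in PDPN+BP3- cells than PDPN- cells by 3.94 ± 0.14 in thymus (adjusted p 3.73e-12) and by 4.41 ± 0.14 in lymph node (adjusted p 2.01e-12). Between the PDPN+ populations of lymph node the BP3+ cells were lower, at -5.09 ± 0.14 (adjusted p 8.03e-13), and they were also below PDPN- cells, -0.68 ± 0.14 (adjusted p 0.00192). The difference of 0.49 ± 0.14 between lymph node and thymus PDPN+BP3- cells (adjusted p 0.0278) depended on scaling, at 0.25 (adjusted p 0.390) after cyclic loess and 0.34 (adjusted p 0.173) after quantile normalization. It also missed the threshold without thymus replicate 1 (0.51, adjusted p 0.0541) or 2 (0.42, 0.0902) and without lymph node replicate 1 (0.49, 0.0701) or 3 (0.44, 0.0932).

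Bmp3, by contrast, was high in both PDPN+ populations of lymph node. It read 5.28, 5.46 and 5.34 in lymph node PDPN+BP3- cells and 5.30, 5.45 and 5.06 in lymph node PDPN+BP3+ cells. In thymus PDPN+BP3- cells it read 3.36, 4.02 and 3.84, and in PDPN- cells 2.26, 2.61 and 2.37 (thymus) and 2.33, 2.27 and 2.77 (lymph node). The order was thus lymph node PDPN+ above thymus PDPN+ above PDPN-, with no overlap between these 3 tiers. Bmp3 was higher in PDPN+BP3- cells than PDPN- cells by 1.33 ± 0.17 in thymus (adjusted p 1.65e-05) and by 2.90 ± 0.17 in lymph node (adjusted p 1.82e-09). In PDPN+BP3+ cells the excess was 2.81 ± 0.17 (adjusted p 2.34e-09), and the BP3+ and BP3- cells stood at -0.09 (adjusted p 0.845). Lymph node PDPN+BP3- cells exceeded those of thymus by 1.62 ± 0.17 (adjusted p 4.62e-06), with PDPN- cells at 0.04 (adjusted p 0.935).

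Gdf6, a ligand of joint and skull development, had a mean below the median of the table in all 5 populations. Its arrays ran from 3.14 to 4.11 in thymus PDPN+BP3-, 2.98 to 3.56 in lymph node PDPN+BP3-, 2.73 to 2.78 in lymph node PDPN+BP3+, 2.26 to 2.59 in thymus PDPN- and 2.22 to 2.46 in lymph node PDPN- cells. It was higher in PDPN+BP3- cells than PDPN- cells by 1.28 ± 0.20 in thymus (adjusted p 9.81e-05) and by 0.90 ± 0.20 in lymph node (adjusted p 0.00266). The remaining comparisons missed the threshold. Lymph node and thymus PDPN- cells stood at -0.02 (adjusted p 0.98), which passed under no alternative, while the others passed under some. Between lymph node and thymus PDPN+BP3- cells the difference of -0.39 (adjusted p 0.204) passed without thymus PDPN+BP3- replicate 1 (-0.65, adjusted p 0.0138). BP3+ cells stood at 0.39 from PDPN- cells and at -0.51 from PDPN+BP3- cells, and both differences passed in fits of only the arrays compared (adjusted p 0.0280 and 0.0283), the second also with the replicate block (adjusted p 0.0340).

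Bmp1, the protease, ran from 8.15 to 8.54 in thymus PDPN+BP3-, 7.99 to 8.22 in lymph node PDPN+BP3-, 7.61 to 7.88 in lymph node PDPN+BP3+, 7.19 to 7.38 in thymus PDPN- and 7.07 to 7.41 in lymph node PDPN- cells. The PDPN+ arrays all lay above the PDPN- arrays. Bmp1 was higher in PDPN+BP3- cells than PDPN- cells by 1.08 ± 0.13 in thymus (adjusted p 5.68e-06) and by 0.88 ± 0.13 in lymph node (adjusted p 6.24e-05), and in PDPN+BP3+ cells by 0.49 ± 0.13 (adjusted p 0.00827). The difference between BP3+ and BP3- cells, -0.39 ± 0.13 (adjusted p 0.0489), missed the threshold in 7 of 13 alternatives. These included leaving out PDPN+BP3+ replicate 1 (-0.38, adjusted p 0.123) or 2 (-0.33, 0.198) and PDPN+BP3- replicate 1 (-0.34, 0.167) or 2 (-0.37, 0.132). Lymph node and thymus PDPN+BP3- cells stood at -0.25 (adjusted p 0.216), which passed after cyclic loess (-0.44, adjusted p 0.0168) and quantile normalization (-0.37, adjusted p 0.0407).

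Counted by comparison, all 9 genes passed the threshold between PDPN+BP3- and PDPN- cells of thymus, 6 higher and 3 lower, where 28.5% of all genes passed, 10.3% higher and 18.2% lower. Higher genes were thus 36.0% of the calls over all genes, and 55.0% after cyclic loess, while the 9 genes kept their split of 6 and 3. Their median difference was 1.28, against -0.05 over all genes. In lymph node the same comparison called 8 of 9, 5 higher and 3 lower (all genes 23.1%, with 13.4% higher and 9.79% lower), with a median of 0.88 against -0.01. Between lymph node PDPN+BP3+ and PDPN- cells 6 of 9 passed, 3 in each direction (all genes 27.3%, with 16.1% higher and 11.2% lower), with a median of -0.04 against 0.00. Between PDPN+BP3+ and PDPN+BP3- cells 4 of 9 passed, 2 in each direction (all genes 16.2%, with 8.49% higher and 7.74% lower), with a median of -0.18 against 0.01. Without PDPN+BP3+ replicate 1 that count was 2, and in a fit of only the arrays compared 1 was higher and 4 lower. The lymph node comparisons share arrays, so their calls are given side by side only. The 9 genes and the lists below were chosen with earlier results of these data known. The shares of all genes therefore stand beside the counts as a description only.

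Between the tissues, 5 of 9 passed in PDPN+BP3- cells, with Gdf10 and Bmp3 higher in lymph node and Bmp4, Bmp5 and Bmp7 lower (all genes 17.1%, with 11.8% higher and 5.29% lower, median -0.39 against 0.04). Higher genes were 69.1% of all calls there, 45.7% after cyclic loess and 50.7% after quantile normalization, and under both scalings the 9 genes had 1 higher and 5 lower. Without lymph node PDPN+BP3- replicate 3 the count was 3. In PDPN- cells 1 of 9 passed, Bmp4, which was lower in lymph node (all genes 9.61%, with 4.42% higher and 5.19% lower, median -0.05 against -0.01). Without lymph node PDPN- replicate 3 the count was 2. The epithelial and T lineage marker means given above were also lower in lymph node, and their part in these differences was not tested.

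**Figure D2:**
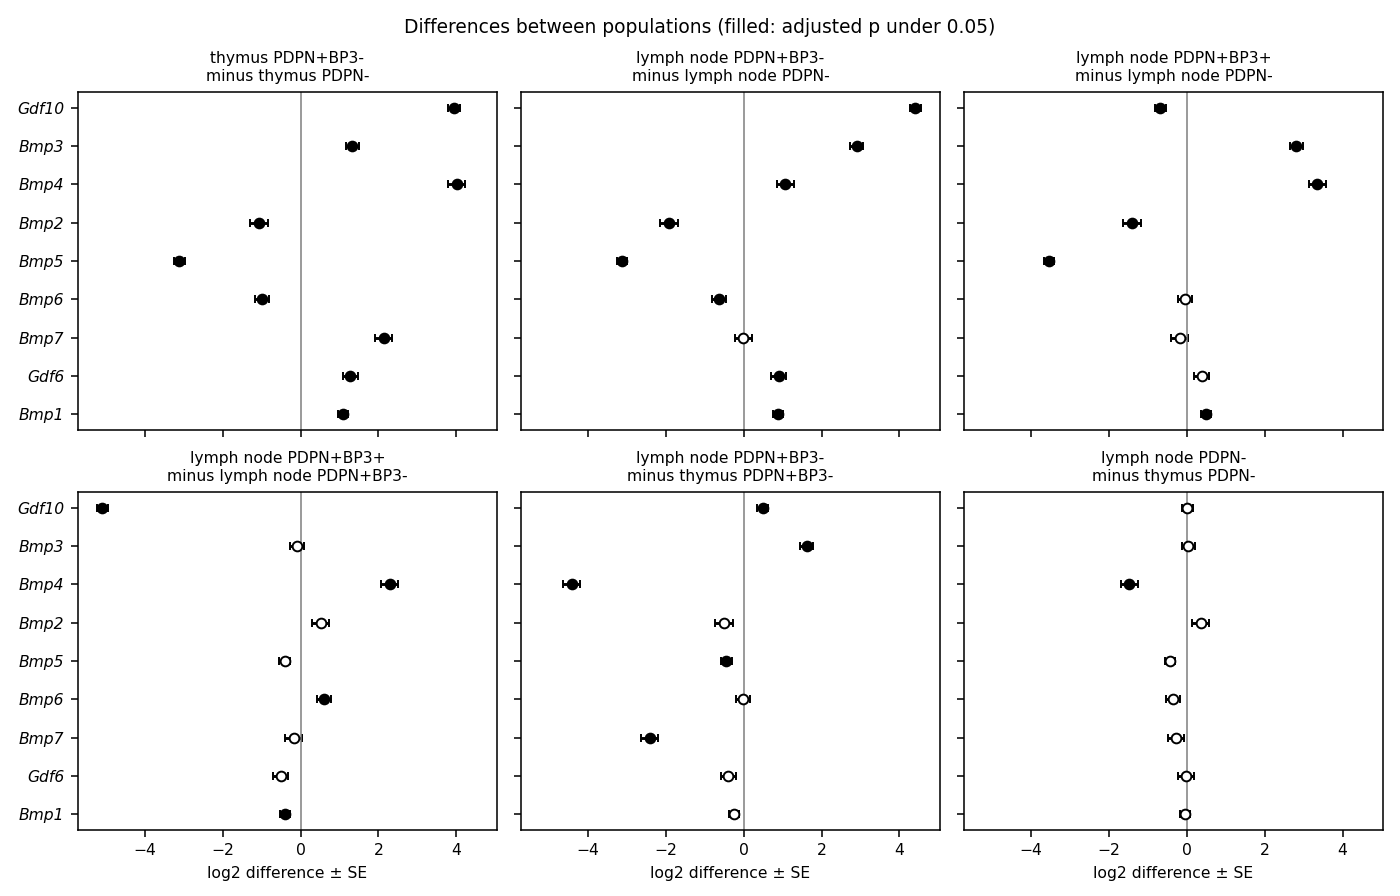
Log2 difference ± SE (limma) for the 9 genes in the 6 comparisons; filled points have an adjusted p under 0.05. All 9 points are filled in the comparison within thymus, and 1 of 9, Bmp4, in the comparison of PDPN- cells between tissues.

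Whether the step from PDPN- to PDPN+BP3- cells differed between tissues was tested as an interaction, the difference in lymph node minus that in thymus. It passed for 3 of 9 genes, against 12.7% of all genes, with a median of -0.20 against 0.06. Positive values were 68.2% of the calls over all genes, 41.5% after cyclic loess and 48.9% after quantile normalization, and under both scalings 4 of the 9 passed, 1 positive and 3 negative. Bmp4 had a smaller step in lymph node (-2.94 ± 0.31, adjusted p 8.19e-06), as had Bmp7 (-2.14 ± 0.30, adjusted p 1.54e-04). Bmp3 had a larger step in lymph node (1.58 ± 0.24, adjusted p 3.66e-04). For Bmp7 the mean of both clusters gave -1.17, past the threshold. Bmp5 (-0.01 ± 0.19, adjusted p 0.987) and Gdf10 (0.47 ± 0.20, adjusted p 0.158) missed it. Bmp2 (-0.86 ± 0.32, adjusted p 0.0962) passed without thymus PDPN+BP3- replicate 1 (-1.18, adjusted p 0.00404). It also passed after cyclic loess (-1.19, adjusted p 0.00506) and quantile normalization (-1.10, adjusted p 0.0104).

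**Figure D3:**
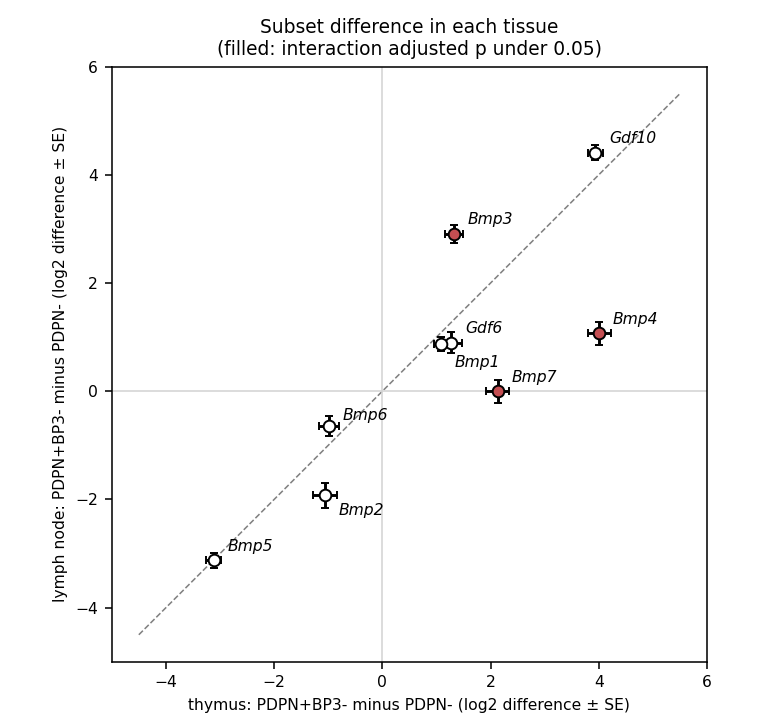
The difference PDPN+BP3- minus PDPN- in thymus (horizontal) against that in lymph node (vertical), as log2 difference ± SE for each of the 9 genes; the dashed line marks equal differences and filled points have an interaction adjusted p under 0.05. Bmp4 and Bmp7 lie below the line and Bmp3 above it, while Bmp5 and Gdf10 lie close to it.

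Among 13 genes of BMP receptors and co-receptors, the level of type II receptor Bmpr2 was between 7.98 and 8.28 in the 5 population means and the type I receptor Bmpr1a between 6.77 and 7.21. In lymph node, 7 of the 13 were higher in PDPN+BP3- cells than PDPN- cells and 1 was lower (median 0.41), where 13.4% of all genes were higher and 9.79% lower. They included the type II receptor Acvr2a (2.02 ± 0.16, adjusted p 5.4e-08), the decoy receptor Bambi (1.21 ± 0.17, adjusted p 5.0e-05), the co-receptor Tgfbr3 (0.88 ± 0.13, adjusted p 7.4e-05) and the co-receptor Rgmb (0.81 ± 0.13). In thymus 5 were higher and 3 lower (median -0.05; all genes 10.3% and 18.2%), led by Rgmb (1.36 ± 0.13, adjusted p 3.9e-07) and the type I receptor Acvrl1 (0.74 ± 0.15). Acvr2a averaged 8.32 in lymph node PDPN+BP3- cells, with 5.95 to 6.78 elsewhere. BP3+ cells had 0 of 13 higher and 5 lower than PDPN+BP3- cells (median -0.24; all genes 8.49% and 7.74%), with Acvr2a at -1.54 ± 0.16. Between BP3+ and PDPN- cells 4 were higher and 1 lower (median -0.01; all genes 16.1% and 11.2%). Of these, Acvr2a (0.48 ± 0.16, adjusted p 0.0332) missed the threshold in 8 of 13 alternatives. The lower gene, Bmpr1a (-0.43 ± 0.14, adjusted p 0.0324), missed it without PDPN- replicate 1 (-0.44, adjusted p 0.0610) or 3 (-0.38, 0.109). It also missed it without PDPN+BP3+ replicate 1 (adjusted p 0.0724), 2 (0.0923) or 3 (0.0678). Between the tissues 3 were higher and 3 lower in lymph node PDPN+BP3- cells (median 0.22; all genes 11.8% and 5.29%), with Bambi at 1.99 ± 0.17 and the co-receptor Eng at -1.07 ± 0.16, and 1 was higher and 1 lower in PDPN- cells (median -0.05; all genes 4.42% and 5.19%).

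Of 8 SMAD pathway genes, 0 to 2 passed in each comparison. The signalling SMADs Smad1 and Smad5 were higher in lymph node PDPN+BP3+ cells than in PDPN- cells (0.90 ± 0.14 and 0.87 ± 0.12) and than in PDPN+BP3- cells (0.65 ± 0.14 and 0.71 ± 0.12), 2 of 8 in both comparisons, with 0 lower (all genes 16.1% and 8.49% higher). In thymus 2 of 8 were higher in PDPN+BP3- cells, Smad5 (0.59 ± 0.12) and the inhibitory Smad6 (1.32 ± 0.16), with 0 lower (all genes 10.3% higher). Smad6 averaged 3.09 in thymus PDPN- cells and 4.31 to 4.68 elsewhere, and was higher in lymph node than in thymus PDPN- cells by 1.59 ± 0.16 (adjusted p 4.4e-06). In lymph node 0 of 8 passed between PDPN+BP3- and PDPN- cells (all genes 23.1%), with 0 of 8 at an unadjusted p under 0.05 in limma. Between the tissues, lymph node against thymus, 1 of 8 was higher and 0 lower for PDPN+BP3- cells (all genes 11.8% higher), and 2 were higher and 0 lower for PDPN- cells (all genes 4.42% higher). The first was the inhibitory Smad7 (0.68 ± 0.21, adjusted p 0.0317), which missed the threshold in 7 of 13 alternatives: after cyclic loess (0.43, adjusted p 0.0830) and quantile normalization (0.46, 0.0604), in a fit of only the arrays compared (0.136), without thymus replicate 1 (0.40, 0.154) or 2 (0.0604) and without lymph node replicate 1 (0.0831) or 2 (0.117). In PDPN- cells Smad7 (0.83 ± 0.21, adjusted p 0.0163) missed it without thymus replicate 1 (0.0550) or 2 (0.0625) or lymph node replicate 1 or 3 (both 0.0573), which leaves Smad6.

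The 13 measured target genes of BMP signalling had patterns that differed from gene to gene. Smad6 and Smad7 are among them and are thus counted in both lists. Id1 averaged 7.52 in lymph node PDPN-, 6.88 in thymus PDPN-, 6.87 in lymph node PDPN+BP3+, 5.84 in thymus PDPN+BP3- and 5.41 in lymph node PDPN+BP3- cells. Id4 averaged 7.15, 6.76 and 6.42 in lymph node PDPN+BP3-, lymph node PDPN- and thymus PDPN- cells. In lymph node PDPN+BP3+ and thymus PDPN+BP3- cells it averaged 3.53 and 3.51. In thymus 2 targets were higher and 5 lower in PDPN+BP3- than in PDPN- cells (median -0.33; all genes 10.3% and 18.2%), with Id4 at -2.91 ± 0.14, Dlx5, a homeobox gene, at -2.43 ± 0.16 and Hey1, also a Notch target, at -2.10 ± 0.12. In lymph node 2 were higher and 3 lower (median -0.16; all genes 13.4% and 9.79%), with Id1 at -2.11 ± 0.18 and the homeobox gene Msx1 at 0.83 ± 0.12. Against PDPN- cells, BP3+ cells had 0 higher and 5 lower (median -0.26; all genes 16.1% and 11.2%), with Id4 at -3.24 ± 0.14. Against PDPN+BP3- cells they had 2 higher and 2 lower (median -0.15; all genes 8.49% and 7.74%), with Id4 at -3.62 ± 0.14 and Id1 at 1.46 ± 0.18. Lymph node exceeded thymus for 5 targets in PDPN+BP3- cells with 0 lower (median 0.10; all genes 11.8% and 5.29%), led by Id4 (3.64 ± 0.14), and for 6 in PDPN- cells with 2 lower (median 0.35; all genes 4.42% and 5.19%), led by Id2 (1.74 ± 0.17).

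Antagonists differed widely between the populations of lymph node. The gremlin gene Grem1 averaged 9.65 in lymph node PDPN+BP3+, 7.35 in lymph node PDPN+BP3- and 3.05 in lymph node PDPN- cells, and 3.00 to 3.24 in thymus. It exceeded PDPN- cells by 6.60 ± 0.12 (adjusted p 3.2e-15) and 4.30 ± 0.12 (adjusted p 4.7e-13). Sostdc1, which binds BMPs and LRP receptors, averaged 6.68 and 4.47 in the same populations and 2.17 to 2.34 in the rest. Chrdl1, a chordin-like antagonist, averaged 9.49 in lymph node PDPN+BP3-, 8.21 in lymph node PDPN+BP3+, 5.49 in lymph node PDPN-, 4.45 in thymus PDPN+BP3- and 3.66 in thymus PDPN- cells. Of 14 measured antagonists and modulators, 8 were higher and 1 lower in lymph node PDPN+BP3- than in PDPN- cells (median 0.63; all genes 13.4% and 9.79%), and 5 higher and 2 lower in PDPN+BP3+ cells (median 0.12; all genes 16.1% and 11.2%). Between lymph node and thymus PDPN+BP3- cells 5 were higher and 3 lower (median 0.14; all genes 11.8% and 5.29%), with Chrdl1 at 5.04 ± 0.21, Grem1 at 4.11 ± 0.12 and Kcp, a BMP enhancer, at -1.49 ± 0.13. The mean of 7 lymphoid stroma markers was 8.81 to 8.94 over the lymph node PDPN+BP3+ arrays, 7.05 to 7.30 over the lymph node PDPN+BP3- arrays and 4.62 to 5.69 elsewhere. Not every marker had this order. Cxcl12 averaged 10.11 in lymph node PDPN+BP3+ and 10.50 in lymph node PDPN+BP3- cells. Cxcl13 averaged 8.88 in lymph node and 8.80 in thymus PDPN+BP3- cells. Madcam1 averaged 3.45 in lymph node PDPN+BP3- and 3.62 in lymph node PDPN- cells. The part of these markers in the differences was not tested.

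In thymus 7 of the 14 were higher in PDPN+BP3- cells than PDPN- cells and 1 lower (median 0.32; all genes 10.3% and 18.2%), among them Bmper, a chordin-like modulator, at 2.05 ± 0.21, Twsg1, a chordin partner, at 1.32 ± 0.16, Kcp at 1.26 ± 0.13 and Crim1, a membrane protein that tethers BMPs, at -1.85 ± 0.17. Nbl1, a DAN family antagonist, averaged 8.68 in thymus PDPN+BP3- and 4.62 in lymph node PDPN+BP3+ cells. Between BP3+ and PDPN+BP3- cells 3 antagonists were higher and 5 lower (median -0.37; all genes 8.49% and 7.74%), with Nbl1 at -2.33 ± 0.18. In PDPN- cells 2 were higher and 1 lower in lymph node than in thymus (median 0.07; all genes 4.42% and 5.19%). Noggin (Nog) averaged 2.37 to 2.98, below the median of the table in all 5 populations.

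**Figure D4:**
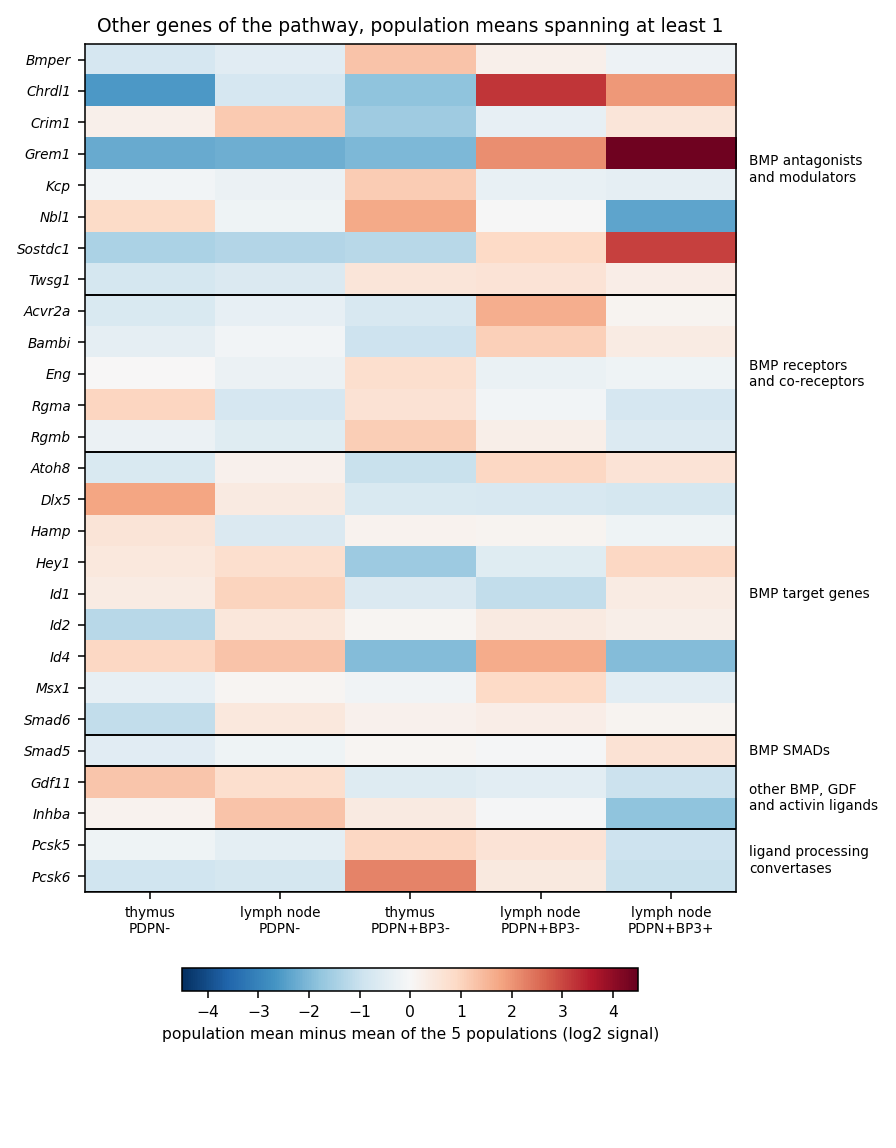
Population mean minus the mean of the 5 populations (log2 signal) for the 27 other genes of the pathway, tolloids and matrix left out, whose population means spanned at least 1, grouped by role; red is above and blue below the gene's own mean. Grem1 and Sostdc1 are reddest in lymph node PDPN+BP3+ cells (4.39 and 3.09), Chrdl1 in lymph node PDPN+BP3- cells (3.23) and Pcsk6 in thymus PDPN+BP3- cells (2.24).

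Of 15 other BMP, GDF and activin ligands, 13 had population means of 4.25 or less, among them Bmp8a, Bmp10, Gdf2 and Gdf5. Gdf11, a relative of myostatin, averaged 7.06 in thymus PDPN- and 6.54 in lymph node PDPN- cells and 4.85 to 5.34 in PDPN+ cells, lower in PDPN+BP3- cells, at -1.85 ± 0.14 in thymus and -1.20 ± 0.14 in lymph node. Inhba, the activin A subunit, averaged 6.08 in lymph node PDPN- and 2.97 in lymph node PDPN+BP3+ cells, a difference of -3.11 ± 0.15 (adjusted p 9.0e-11). The list had 1 higher and 2 lower in the thymus comparison, 0 and 2 in lymph node PDPN+BP3-, and 2 and 3 in PDPN+BP3+ against PDPN- cells, with medians of -0.03, -0.04 and -0.10. In either direction these were 3, 2 and 5 of 15, where 28.5%, 23.1% and 27.3% of all genes passed. Between BP3+ and PDPN+BP3- cells it had 1 higher and 2 lower (median -0.06; all genes 8.49% and 7.74%). Between the tissues it had 1 higher and 2 lower in PDPN+BP3- cells (all genes 11.8% and 5.29%). These were Bmp8b (0.40, adjusted p 0.0466), Inhba (-0.46, adjusted p 0.0422) and Inhbb (-0.58, adjusted p 0.00755). In a fit of only the arrays compared, Bmp8b (adjusted p 0.103) and Inhba (0.0674) missed the threshold. Both also missed it without thymus replicate 1 or 3 and without lymph node replicate 2 or 3 (adjusted p 0.0793 to 0.168). Bmp8b further missed it with the replicate block (0.0506) and without lymph node replicate 1 (0.0803). Inhba did so with a trended robust prior (0.0794) and without thymus replicate 2 (0.07). Bmp8b and Inhbb averaged 2.14 to 2.77 in these cells, under the median of the table. In PDPN- cells the list had 1 in each direction (all genes 4.42% and 5.19%). Inhba was higher in lymph node by 1.13 ± 0.15. Gdf11 was lower (-0.51, adjusted p 0.0293) but missed the threshold after cyclic loess (0.0698) and quantile normalization (0.0535). It also missed it in a fit of only the arrays compared (0.0725) and with a trended robust prior (0.0552). The call was lost, too, without thymus PDPN- replicate 1 (0.0618) or 2 (0.143) and without lymph node PDPN- replicate 2 (0.147).

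Proprotein convertases cut the ligand precursors. Furin averaged 6.79 to 7.12 in all 5 populations. Pcsk6 averaged 5.49 in thymus PDPN+BP3-, 3.69 in lymph node PDPN+BP3- and 2.26 to 2.47 in the other cells. It was higher in PDPN+BP3- cells than PDPN- cells by 3.12 ± 0.23 in thymus (adjusted p 2.0e-08) and 1.22 ± 0.23 in lymph node, as was Pcsk5 by 1.12 ± 0.17 and 1.05 ± 0.17, so that 2 of 3 convertases were higher in both tissues (medians 1.12 and 1.05; all genes 10.3% and 13.4% higher). In BP3+ cells both were below PDPN+BP3- cells (all genes 7.74% lower), Pcsk5 at -1.55 ± 0.17 and Pcsk6 at -1.43 ± 0.23. Pcsk6 was also lower in lymph node than in thymus PDPN+BP3- cells (-1.81 ± 0.23, adjusted p 3.62e-05).

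The list of tolloid proteases, their enhancers and matrix substrates, which holds the partners of Bmp1, was higher in PDPN+BP3- cells than PDPN- cells for 14 of 14 genes in thymus (median 1.80) and 12 of 14 in lymph node (median 1.22), with 0 lower (all genes 10.3% and 13.4% higher). This list, too, was chosen with earlier results of these data known. The tolloid-like genes Tll1 and Tll2 averaged 3.71 and 3.55 in thymus PDPN+BP3- cells, under the median of the table. The enhancer Pcolce2 averaged 7.89 (thymus) and 7.63 (lymph node) in PDPN+BP3- cells, 3.64 in PDPN+BP3+ cells, 3.42 in lymph node PDPN- and 2.61 in thymus PDPN- cells. Loxl1, a matrix cross-linker that Bmp1 activates, was higher in PDPN+BP3- cells by 4.25 ± 0.16 in thymus and 2.80 ± 0.16 in lymph node. BP3+ cells had 1 higher and 11 lower than PDPN+BP3- cells (median -0.83; all genes 8.49% and 7.74%), and 5 higher and 1 lower than PDPN- cells (median 0.20; all genes 16.1% and 11.2%). In PDPN- cells 6 were higher in lymph node than in thymus and 0 lower (median 0.57; all genes 4.42% and 5.19%), led by Col1a1 (2.25 ± 0.13). In PDPN+BP3- cells 1 was higher and 1 lower (median 0.01; all genes 11.8% and 5.29%). The higher gene there was Col1a1 (0.47 ± 0.13, adjusted p 0.0163), which missed the threshold after cyclic loess (0.32, adjusted p 0.0940) and quantile normalization (0.37, 0.0531), in a fit of only the arrays compared (0.0564), and without replicate 1 of thymus (0.38, 0.0765) or of lymph node (0.46, 0.0530). The part of the adventitial fibroblast markers, whose means are given beside Gdf10, in these matrix differences was not tested either.

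The genes whose signal ran most like that of each ligand over the 15 arrays are given as a description; the arrays fall into 5 populations, so they are not independent points. For Gdf10 these were the actin-severing Gsn (r = 0.990), the lipid phosphatase Plpp3 (0.987) and Igsf10 (0.985). For Bmp5 they were Cobll1 (r = 0.991), the ephrin receptor Epha2 (0.990) and the repressor Prdm1 (0.989). For Bmp4 they were the NAD synthesis gene Qprt (r = 0.959), the chemokine Cx3cl1 (0.951) and the Wnt inhibitor Nkd2 (0.942). Bmp7 ran with Mrgprg (r = 0.979), the R-spondin receptor Lgr5 (0.974) and Col8a1 (0.973). Lgr5 averaged 4.91 in thymus PDPN+BP3- cells, with 2.16 to 2.36 elsewhere. Bmp3 ran with Kctd12 (r = 0.984), Rgs17 (0.980) and the cholesterol carrier Npc2 (0.975). Gdf6 ran with the BMP modulator Bmper (r = 0.954), Sec16b (0.948) and the chloride transporter Clcn5 (0.942). Bmp2 ran with Ager (r = 0.970), the myosin phosphatase inhibitor Ppp1r14a (0.964) and Mink1 (0.961). Bmp1 ran with Baiap2 (r = 0.978), the TGF-β signal mediator Smad3 (0.977) and Igsf3 (0.976).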

How the data were processed

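The deposited values are RMA signals of Affymetrix arrays on a log2 scale, made by the authors with RMA in the Affymetrix Expression Console, per the submitters' processing notes, with versions not given in the sources used here. Base 2 was taken from the spread of the table, 1.07 to 12.07, since the labels name no base. The table held 24758 transcript clusters. The array annotation gave 1 symbol for 20844, several for 1735 and none for 2179, and after keeping the brightest cluster of each gene 18718 genes remained. Low values were not filtered out, and the number of arrays limits the precision.

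limma 3.58.1 in R 4.3.3 fitted the 5 population means on all 15 arrays together (eBayes without a trend, with 10 residual and 5.50 prior degrees of freedom), with Benjamini-Hochberg adjustment over all genes. The procedure was tested on simulated data. The 9 genes were always named. Of each pathway list, up to 4 members per comparison with the smallest adjusted p were named, with members that explain a count. For ligands whose population means span at least 1, the 3 genes of highest Pearson correlation were named, without predicted genes and small RNAs. The members and lists were chosen with earlier results of these data known. Genes listed but without a cluster of 1 symbol were not analysed here. Alternatives were cyclic loess, quantile normalization, only the arrays compared, a trended robust prior, a filter on genes above the median of the table, the mean of all clusters of a gene, the replicate number as a block, and leaving out each array.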

Additional observations from a re-analysis of the deposited data

Results flagged for a closer look

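The step from PDPN- to PDPN+BP3- cells was not of one size in the tissues for 3 of the 9 genes, by the interaction test of limma with Benjamini-Hochberg adjustment. The difference in lymph node minus that in thymus was 1.58 ± 0.24 for Bmp3 (adjusted p 3.66e-04), -2.94 ± 0.31 for Bmp4 (adjusted p 8.19e-06) and -2.14 ± 0.30 for Bmp7 (adjusted p 1.54e-04). Bmp3 was higher in all 3 PDPN+BP3- arrays than in any PDPN- array of both tissues, with the larger step in lymph node. Bmp4 was higher in the PDPN+BP3- arrays than in the PDPN- arrays of the same tissue, with the larger step in thymus. Its lymph node PDPN+BP3- arrays (4.56, 3.75 and 3.91) overlapped with the thymus PDPN- arrays (4.44, 4.49 and 4.49). Bmp7 showed its step in thymus, with -0.0033 in lymph node. Over 12 fits that each left out 1 array, the interaction ran from 1.39 to 1.73 for Bmp3, -3.18 to -2.72 for Bmp4 and -2.33 to -1.84 for Bmp7, past the threshold each time.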

How the results depend on the processing

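Of 2822 recomputed differences of named genes, 2660 kept their direction and their side of the threshold, 120 fell below it, 16 passed it and 26 changed sign. Besides the 9 genes, these cover pathway genes picked because they passed the threshold with the smallest p-values of their list. Such genes could not newly pass it, so the share that stayed the same does not measure the stability of the 9 genes. Of the counts of called ligand genes, 3 moved by more than 1.5 times. Lymph node against thymus PDPN+BP3- cells called 3 of 9 with a trended robust prior, against 5, and 3 to 5 when 1 array was left out. Lymph node PDPN+BP3+ against PDPN+BP3- cells called 2 to 4, and lymph node against thymus PDPN- cells 1 to 2, when 1 array was left out. The causes were not tested.

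The sign changed only for differences near 0, none past the threshold. When 1 array was left out, the lymph node PDPN+BP3- minus PDPN- difference ran from -0.0967 to 0.0833 for Bmp7, and PDPN+BP3+ minus PDPN- from -0.1833 to 0.1517 for Bmp6. PDPN+BP3+ minus PDPN+BP3- ran from -0.18 to 0.015 for Bmp3, and lymph node minus thymus PDPN+BP3- from -0.1267 to 0.1617 for Bmp6. Lymph node minus thymus PDPN- ran from -0.1317 to 0.0383 for Bmp1, -0.1133 to 0.1417 for Bmp3, -0.0783 to 0.0867 for Gdf6 and -0.08 to 0.16 for Gdf10, and the Bmp5 interaction from -0.1733 to 0.1117. Quantile normalization gave 0.0020 for Bmp7 between lymph node PDPN+BP3- and PDPN- cells, the mean of all clusters 0.0083 for Bmp7 between PDPN+BP3+ and PDPN+BP3- cells, and cyclic loess 7e-04 for Gdf6 between the PDPN- cells of the tissues.

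Of 30 pairs of same-numbered arrays, 6 had deviations from the population means correlated over 0.1, with correlations from -0.174 to 0.288. With 3 arrays per population, this cannot settle whether same-numbered arrays share a pool of animals. The main fit treats them as unpaired. With the replicate block, 9, 8, 6, 4, 4 and 1 of the 9 genes passed in the order of the comparisons above, and 4 in the interaction, where Bmp2 passed (adjusted p 0.0471). In the comparison of BP3+ with PDPN+BP3- cells the block lost Bmp1 (-0.39, adjusted p 0.0718) and gained Gdf6 (-0.51, adjusted p 0.0340). The filter on the median of the table leaves no value for Gdf6, which lies below it in every population. The 3 arrays per population limit the precision, and differences that involve means under 3.80 are differences of signal, not ratios of RNA.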
